A study of Mus musculus with 4 samples.

Results

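The genes described here are 10 members of the type 2 cytokine axis, taken by gene symbol from the 41079 genes of the table: the cytokines Il4, Il5 and Il13, the epithelial alarmins Il33, Tslp and Il25, and the receptor chains Il1rl1, Il4ra, Il13ra1 and Il13ra2. The rule that picks them reads gene symbols alone. Alarmins are released or secreted by epithelial and other tissue cells and act on group 2 innate lymphoid cells (ILC2), mast cells, dendritic cells and T helper 2 (Th2) cells. ILC2 and Th2 cells then make IL-4, IL-5 and IL-13. IL-5 sustains eosinophils, and IL-4 and IL-13 act through a shared receptor chain and STAT6 on epithelium, macrophages and B cells, where they drive mucus, chemokine and IgE production.

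Lung RNA was sequenced from female C57BL/6 mice, either WT or Rab44-KO, a whole-body knockout made by CRISPR/Cas9 of the gene for Rab44, a large Rab GTPase. Normal mice of both genotypes are labelled as untreated, although the protocol they carry also names PBS challenge. OVA-induced mice of both genotypes were sensitised with ovalbumin (OVA, 100 μg) and alum by intraperitoneal injection on days 0, 7 and 14. They were then challenged through the nose with OVA (100 μg in a volume of 50 μL) over 4 days, and their lungs were taken on day 21. Each of the 4 groups is 1 library and the number of mice behind it is not given in the sources used here, so no difference below has a replicate check, no p-value is given, and each comparison is between libraries.

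The libraries held 18112901 to 19910236 counts, and the Rab44 gene itself had 251 counts in normal and 810 in OVA-induced WT lungs, against 1 and 0 in those of Rab44-KO mice. All 6 lung markers looked for (Sftpc, Sftpd, Scgb1a1, Ager, Cldn18 and Nkx2-1) were detected in every library, and the lowest of these values was 2826 counts, for Nkx2-1. Levels are given as raw counts and as CPM, the counts divided by a TMM-scaled library size. Where 4 values follow each other, the normal pair comes first and WT comes before Rab44-KO within each pair. Exact 95% intervals stand in parentheses and speak of counting error alone. For a library at 0 counts, the floor was taken as 3 counts, or 0.154 to 0.164 CPM.

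Il4, Il13 and Il5 lie in this order in the type 2 cytokine cluster of chromosome 11 (GRCm38, GENCODE M21), Il4 at chr11:53602982-53618669 and Il13 at chr11:53631324-53634702 on the minus strand and Il5 at chr11:53720794-53725106 on the plus strand, with 12654 bases between Il4 and Il13 and 86091 bases between Il13 and Il5. Il33 is at chr19:29925114-29960718, Il1rl1 at chr1:40429570-40465415, Il4ra at chr7:125552120-125579474, Il25 at chr14:54932695-54935837, Il13ra1 at chrX:36112110-36171259 and Il13ra2 at chrX:147383476-147429192. The 250 bases before the RefSeq start (GRCm38.p6) were held for 8 of the 10 members, with 11 starts in all. All 8 starts held are shown for the 5 members that stood more than 2-fold above normal WT in the OVA-induced WT library. Capitals mark GATAA on either strand (TTATC on the minus strand), the core read by GATA factors such as GATA3, the lineage factor of Th2 cells and ILC2, TTC followed after 4 bases of any kind by GAA, the spacing bound by STAT6 and the same on both strands, and TATAAA on the plus strand of the gene. Each sequence runs 5′ to 3′ along the gene and ends at the base before its start.
Il4 start 1, chr11:53618666-53618915, minus strand: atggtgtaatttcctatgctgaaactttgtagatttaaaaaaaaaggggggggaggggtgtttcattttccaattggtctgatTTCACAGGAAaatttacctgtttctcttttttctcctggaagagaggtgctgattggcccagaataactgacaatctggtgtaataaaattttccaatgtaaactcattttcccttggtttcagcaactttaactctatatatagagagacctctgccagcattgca
Il4 start 2, chr11:53617339-53617588, minus strand: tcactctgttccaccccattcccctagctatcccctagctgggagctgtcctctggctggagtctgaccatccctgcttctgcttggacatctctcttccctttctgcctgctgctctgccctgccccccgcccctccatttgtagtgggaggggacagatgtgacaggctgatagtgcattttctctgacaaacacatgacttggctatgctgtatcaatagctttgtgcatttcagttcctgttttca
Il13, chr11:53634703-53634952, minus strand: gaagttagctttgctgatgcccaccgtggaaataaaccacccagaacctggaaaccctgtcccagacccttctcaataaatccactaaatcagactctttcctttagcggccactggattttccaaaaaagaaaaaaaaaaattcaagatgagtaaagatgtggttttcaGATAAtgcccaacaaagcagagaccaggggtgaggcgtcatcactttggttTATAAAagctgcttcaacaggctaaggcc
Il33 start 1, chr19:29924863-29925112, plus strand: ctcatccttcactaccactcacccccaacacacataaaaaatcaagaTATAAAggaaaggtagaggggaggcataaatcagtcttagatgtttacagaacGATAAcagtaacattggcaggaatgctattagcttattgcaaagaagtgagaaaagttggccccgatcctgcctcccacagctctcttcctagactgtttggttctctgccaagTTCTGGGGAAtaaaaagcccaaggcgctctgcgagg
Il33 start 2, chr19:29945540-29945789, plus strand: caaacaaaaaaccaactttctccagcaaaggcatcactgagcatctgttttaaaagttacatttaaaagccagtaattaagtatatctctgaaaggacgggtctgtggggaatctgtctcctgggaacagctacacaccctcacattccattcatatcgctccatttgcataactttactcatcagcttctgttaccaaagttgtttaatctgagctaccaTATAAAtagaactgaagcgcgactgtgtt
Il1rl1 start 1, chr1:40429320-40429569, plus strand: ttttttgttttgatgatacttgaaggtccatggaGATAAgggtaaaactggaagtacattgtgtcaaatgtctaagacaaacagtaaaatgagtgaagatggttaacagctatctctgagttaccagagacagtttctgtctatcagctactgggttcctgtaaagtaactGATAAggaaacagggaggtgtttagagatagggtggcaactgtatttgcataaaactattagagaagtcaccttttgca
Il1rl1 start 2, chr1:40439379-40439628, plus strand: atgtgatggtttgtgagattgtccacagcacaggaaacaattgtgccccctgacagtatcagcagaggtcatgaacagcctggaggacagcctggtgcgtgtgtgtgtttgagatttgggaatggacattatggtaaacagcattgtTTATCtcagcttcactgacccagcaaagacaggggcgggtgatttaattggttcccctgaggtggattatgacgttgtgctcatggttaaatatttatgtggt
Il13ra2, chrX:147429193-147429442, minus strand: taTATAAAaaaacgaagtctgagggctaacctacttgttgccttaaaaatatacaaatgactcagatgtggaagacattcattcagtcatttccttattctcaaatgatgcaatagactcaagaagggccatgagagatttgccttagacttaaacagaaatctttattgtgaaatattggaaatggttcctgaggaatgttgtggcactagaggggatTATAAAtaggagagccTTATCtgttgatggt
TATAAA was read 29 to 24 bases before the start of Il13, 29 to 24 bases before start 2 of Il33 and 31 to 26 bases before that of Il13ra2. It was also read farther off, 203 to 198 bases before start 1 of Il33 and 248 to 243 bases before Il13ra2. GATAA or its complement was read 80 to 76 bases before Il13, 15 to 11 bases before Il13ra2, 150 to 146 bases before start 1 of Il33, and before both starts of Il1rl1. This spaced TTC and GAA pair was read 167 to 158 bases before start 1 of Il4 and 36 to 27 bases before start 1 of Il33. Start 2 of Il4 held none of the 3 motifs. Across 32851 mouse promoter windows of the same length, 22.6% held GATAA, 5.85% held the spaced pair and 7.59% held TATAAA, so these matches describe the letters and not bound sites. Gene counts cannot separate the 2 starts of Il33, Il4 or Il1rl1.

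The 3 cytokines of the cluster were near the limit of detection, and Il4 and Il13 were highest in the OVA-induced WT library. Il4, which drives Th2 differentiation and IgE class switching, had 6 and 7 counts in normal WT and Rab44-KO lungs, and 17 and 6 after OVA (0.312, 0.384, 0.878 and 0.308 CPM). The OVA-induced WT level was 2.81-fold that of normal WT (1.06 to 8.70), and the OVA-induced Rab44-KO level was 2.85-fold lower than it (1.07 to 8.83). Both intervals come close to 1, so the counts separate these libraries only narrowly. In bulk lung, fewer cells of a type and less RNA per cell cannot be told apart, here or for any gene below.

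Il13, the cytokine most tied to goblet cell mucus, was read almost only in OVA-induced WT lungs, with 1, 0, 13 and 0 counts. Its 13 counts are 0.671 CPM (0.357 to 1.15), while the normal WT count of 1 is 0.0521 CPM with a ratio of 12.9 that counting error leaves between 1.94 and 548. With its 0 counts set to the floor of 3, OVA-induced Rab44-KO was at least 4.36-fold lower than OVA-induced WT, and the counting interval of this ratio begins lower, at 3.07-fold. Both Rab44-KO libraries were thus below the floor, and no fold between them is given.

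Il5, the growth and survival factor of eosinophils, did not share this pattern. Its counts were 16 and 19 in normal WT and Rab44-KO lungs, and 8 and 7 after OVA (0.833, 1.04, 0.413 and 0.359 CPM). The higher values were the normal ones in both genotypes, with a log2 ratio of OVA-induced over normal of -1.0 in WT (-2.44 to 0.30) and -1.52 in Rab44-KO (-3.03 to -0.22). Only the Rab44-KO interval lay on one side of 0. Between the OVA-induced libraries its ratio was 0.869 (0.268 to 2.74), a difference not detectable at this depth.

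**Figure D1:**
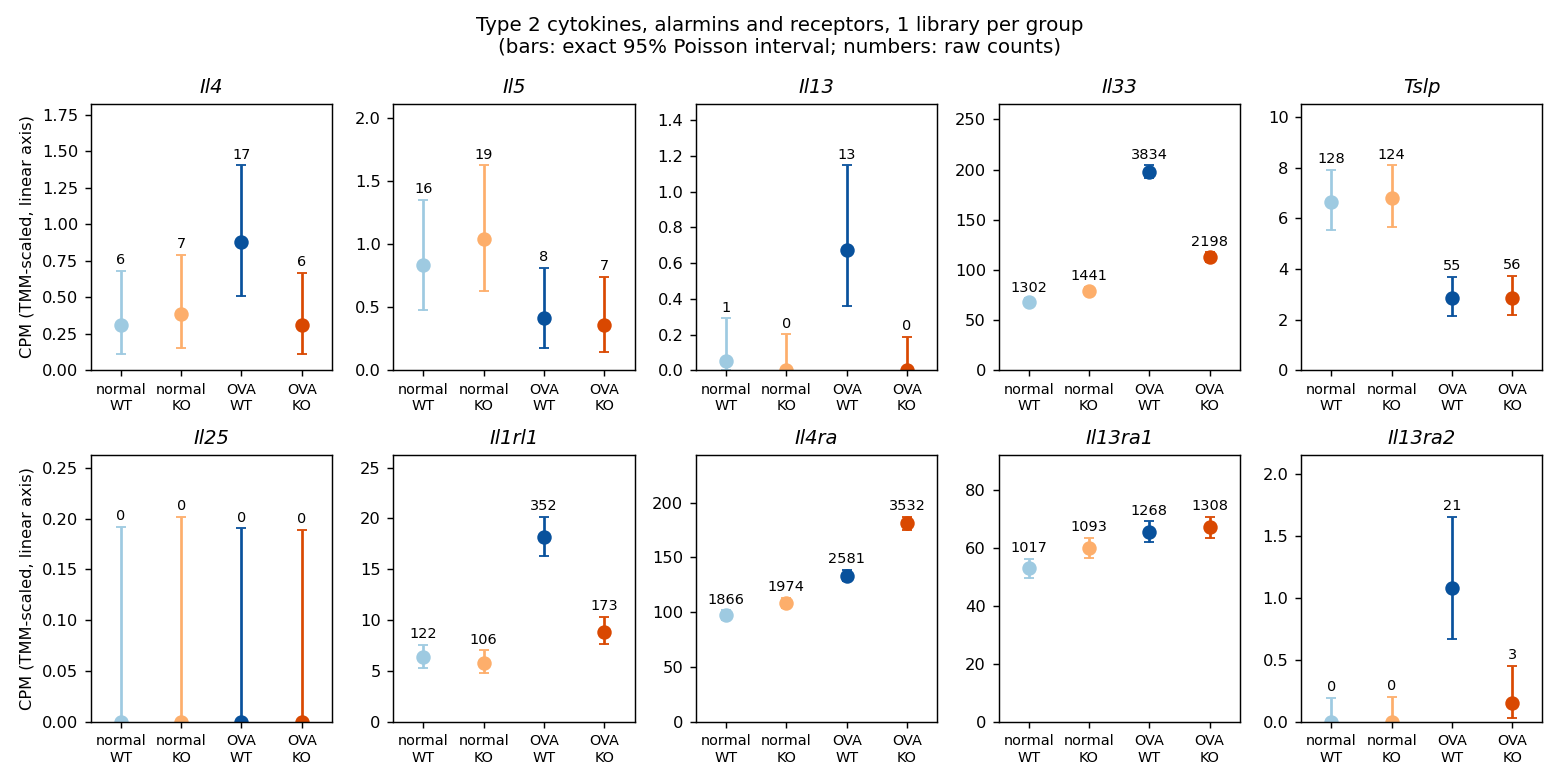
Level of each of the 10 genes (CPM, linear axes that start at 0) in normal and OVA-induced (OVA) lungs of WT and Rab44-KO (KO) mice, 1 library per point, with exact 95% Poisson intervals as bars and raw counts above them. Il33, Il1rl1, Il4, Il13 and Il13ra2 are highest in OVA-induced WT, Il4ra is highest in OVA-induced Rab44-KO, and Tslp is low in both OVA-induced libraries.

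Among the alarmins, Il33 and Tslp stood in opposite directions to OVA. Il33, a nuclear cytokine set free when epithelial or stromal cells are damaged, had 1302 counts in WT (67.8 CPM, 64.2 to 71.6) and 1441 in Rab44-KO mice (79.0 CPM, 74.9 to 83.1) without OVA. After OVA these were 3834 (198 CPM, 192 to 204) and 2198 (113 CPM, 108 to 118). No 2 of these counting intervals overlap. OVA-induced WT was 2.92-fold higher than normal WT (2.74 to 3.11), and OVA-induced Rab44-KO was 1.43-fold higher than normal Rab44-KO (1.34 to 1.53). Rab44-KO was 1.16-fold higher than WT in normal lungs (1.08 to 1.26), while in OVA-induced lungs the ratio was 0.570 (0.540 to 0.600).

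Tslp, an alarmin that acts on dendritic cells and ILC2, had 128 and 124 counts in normal lungs of WT and Rab44-KO mice, and 55 and 56 in OVA-induced ones (6.67, 6.79, 2.84 and 2.87 CPM). Both OVA-induced libraries were lower than their normal counterparts, by log2 ratios of -1.23 in WT (-1.71 to -0.76) and -1.24 in Rab44-KO (-1.72 to -0.78). The genotypes gave nearly the same counts, with Rab44-KO over WT ratios of 1.02 in normal (0.790 to 1.32) and 1.01 in OVA-induced lungs (0.685 to 1.49). Those intervals leave room for a genotype difference of about the size of their bounds. Il25, the tuft cell alarmin that signals through Il17rb, had 0 counts in all 4 libraries, which leaves exact upper limits of 0.189 to 0.202 CPM and gives no comparison.

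The receptor chains were not alike. Il1rl1 encodes ST2, the IL-33 receptor of ILC2, Th2 cells and mast cells, and a soluble form from another start that binds IL-33 without signalling. Normal WT and Rab44-KO lungs had 122 and 106 counts, and OVA-induced ones 352 and 173 (6.35, 5.81, 18.2 and 8.87 CPM). The OVA-induced WT library was 2.86-fold above normal WT (2.32 to 3.54) and the OVA-induced Rab44-KO library 1.53-fold above normal Rab44-KO (1.19 to 1.96). Between the OVA-induced libraries, Rab44-KO was lower with a log2 ratio of -1.03 (-1.31 to -0.77), whereas in normal lungs the ratio was 0.914 (0.698 to 1.20). IL-33 and its receptor thus had their highest level in the same library. How the reads divide between the membrane and soluble forms is not held in gene counts.

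Il4ra, the signalling chain shared by both IL-4 receptor types, had 1866 and 1974 counts in normal WT and Rab44-KO lungs, and 2581 and 3532 in OVA-induced ones (97.2, 108, 133 and 181 CPM). It was the member that was highest in the OVA-induced Rab44-KO library beyond counting error. OVA-induced lungs were 1.37-fold above normal lungs in WT (1.29 to 1.46) and 1.67-fold in Rab44-KO (1.58 to 1.77), and Rab44-KO over WT in OVA-induced lungs was 1.36 (1.29 to 1.43). Il13ra1, which pairs with Il4ra to bind IL-13, varied least of the detected members, with 1017, 1093, 1268 and 1308 counts (53.0, 59.9, 65.5 and 67.1 CPM). Its ratio of OVA-induced over normal was 1.24 in WT (1.14 to 1.34) and 1.12 in Rab44-KO (1.03 to 1.22), and Rab44-KO over WT was 1.13 in normal (1.04 to 1.23) and 1.02 in OVA-induced lungs (0.948 to 1.11).

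Il13ra2 encodes a chain that binds IL-13 with high affinity and is best known as a decoy. Both normal libraries were at 0 counts, and those after OVA at 21 in WT (1.08 CPM, 0.671 to 1.66) and 3 in Rab44-KO mice (0.154 CPM, 0.0317 to 0.450). With normal WT set to the floor of 3 counts, OVA-induced WT was at least 6.94-fold higher, and the counting interval begins at 5.16-fold. The OVA-induced Rab44-KO count was 7.05-fold lower than that of OVA-induced WT (2.10 to 36.9), and at the floor itself. Ligand Il13 and decoy Il13ra2 therefore both had 10 or more counts in OVA-induced WT alone.

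On the length-scaled TPM of the authors, which allows levels of different genes to be set side by side, Il33 was the most abundant member in each library, followed by Il4ra and Il13ra1. In OVA-induced WT lungs Il33 stood at 139 TPM, Il4ra at 53.8 and Il13ra1 at 37.1, and the counting intervals of these 3 do not overlap. Il33 and Il4ra lay closest in OVA-induced Rab44-KO lungs, at 99.5 and 91.7 TPM, and were still apart (95.4 to 104 and 88.7 to 94.8). Il1rl1 passed Tslp only in OVA-induced WT lungs, at 5.27 against 4.49 TPM, and there their intervals overlap (4.73 to 5.85 and 3.38 to 5.84). In the other 3 libraries Tslp was the fourth and Il1rl1 the fifth, with no overlap. Below them Il4, Il13, Il13ra2 and Il5 were at 2.19 TPM or less in every library, and neighbours among the detected ones overlapped.

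To see how the set stood against all genes, ratios beyond 2-fold were counted among members that reached 10 counts in either library of a comparison. In OVA-induced over normal WT, 5 of the 9 members that passed were higher (Il4, Il13, Il33, Il1rl1 and Il13ra2), where 8.99% of 19023 genes were, and 2 were lower (Il5 and Tslp), where 5.20% were. Il5 lay at the threshold with an interval that includes 0, and it was no longer beyond 2-fold with DESeq2 size factors or with a prior count of 2 (log2 ratio -0.86). The median log2 ratio of those 9 was 1.47, against 0.00 over all genes. By a stricter rule, a counting interval wholly beyond 2-fold, 3 were higher (Il33, Il1rl1 and Il13ra2), against 4.28% of genes, and 0 lower, against 1.05%. In OVA-induced over normal Rab44-KO, 6 members passed, 0 were higher (6.44% of all genes) and 2 were lower (Il5 and Tslp, against 3.85%), with a median of 0.34 against -0.01. The stricter rule placed 0 in either direction, against 1.91% of genes higher and 0.771% lower. In WT, Il4, Il13 and Il13ra2 passed the minimum only through the OVA-induced library where they are high, so they had to be higher there. Il5 passed only through the normal library in WT and in Rab44-KO, so it had to be lower after OVA. These counts therefore describe the libraries.

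Rab44-KO over WT in normal lungs placed 0 of the 6 members that passed beyond 2-fold in either direction, against 2.77% of genes higher and 2.0% lower, and their median was 0.17 against 0.00. By the stricter rule 0 were higher (0.272% of genes) and 0 lower (0.102%). In OVA-induced lungs 4 of 8 were lower in Rab44-KO (Il4, Il13, Il1rl1 and Il13ra2), where 7.34% of genes were, and 0 were higher, where 8.40% were. The median log2 ratio of the 8 was -0.92, against -0.02 over all genes. Il4, Il13 and Il13ra2 passed the minimum only through the OVA-induced WT library, so they had to be lower in Rab44-KO. They did not pass in normal lungs, so the median there covers different members. Of the members that reached the minimum in both OVA-induced libraries, Il33 was at -0.81 and Il1rl1 at -1.03. Tslp was at 0.02, Il13ra1 at 0.04 and Il4ra at 0.44. The stricter rule left 2 lower (Il13 and Il13ra2), against 2.76% of genes, and 0 higher, against 2.14%. Of the 4, Il1rl1 lay just past the threshold, and its log2 ratio was -0.97 with total counts in place of TMM and -0.69 on TPM. The median of all genes on TPM was itself 0.29 in this comparison. The 4 comparisons share libraries and are not independent of each other.

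**Figure D2:**
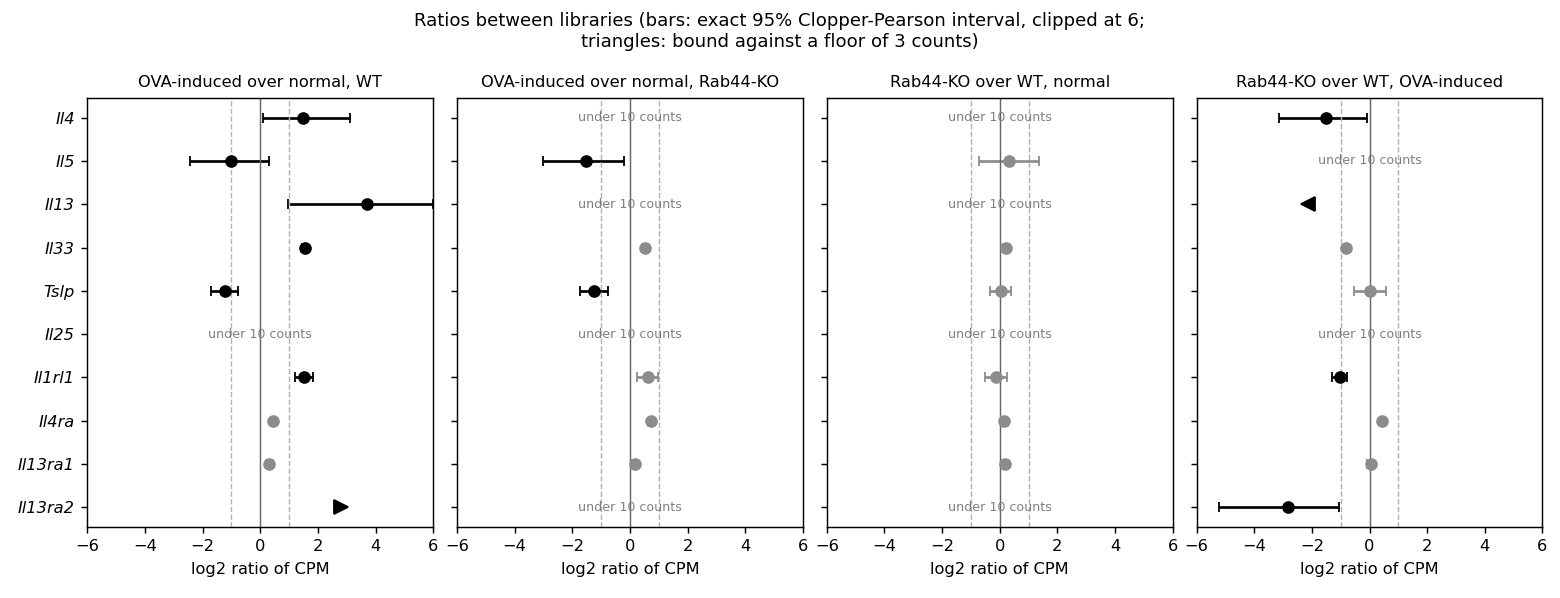
Log2 ratio of CPM of each member in the 4 comparisons, with exact 95% Clopper-Pearson intervals clipped at 6 and dashed lines at 2-fold. Black points are beyond 2-fold, grey points are not, and triangles mark bounds against a floor of 3 counts. Black points right of 0 occur only for OVA-induced over normal WT (5 members), and in the OVA-induced genotype comparison 4 members stand left of the lower dashed line. In OVA-induced over normal Rab44-KO, Il4, Il13 and Il13ra2 were under 10 counts in both libraries and have no point, so they could not be black there.

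The difference between genotypes in the OVA-induced over normal ratio, Rab44-KO minus WT on the log2 scale, had a counting interval on one side of 0 for 3 members. They were Il33 at -1.03 (-1.17 to -0.90), Il1rl1 at -0.90 (-1.38 to -0.43) and, in the opposite direction, Il4ra at 0.29 (0.17 to 0.41). Tslp was at -0.01 (-0.69 to 0.67) and Il13ra1 at -0.14 (-0.31 to 0.03), and the sign of both depends on the scaling. Il4 at -1.78 (-4.21 to 0.58) and Il5 at -0.52 (-2.53 to 1.47) rest on few counts, and their intervals include 0, and Il13 and Il13ra2 have no such value because of their 0 counts.

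The 11 other chains of these and neighbouring receptors (Il5ra, Csf2rb, Csf2rb2, Il2rg, Il1rap, Crlf2, Il7r, Il17rb, Il17ra, Il1rl2 and Il9r) were detected in every library. In WT mice OVA-induced lungs were over 2-fold above normal ones for 5 of 11 and below for 0, with a median log2 ratio of 0.94, and in Rab44-KO 1 was higher (Il9r) and 0 lower, with a median of 0.49. Over all genes 8.99% were higher and 5.20% lower in WT, and 6.44% and 3.85% in Rab44-KO, while Rab44-KO over WT after OVA had 8.40% higher and 7.34% lower. The counts of every list that follows stand beside these shares. The IL-5 receptor chain Il5ra, a marker of eosinophils and some B cells, had 26, 24, 78 and 37 counts. Its partner Csf2rb, the β chain shared with the IL-3 and GM-CSF receptors, had 607, 551, 1743 and 985 counts. Csf2rb2, a β chain for IL-3 only, had 210, 220, 656 and 374 counts, and both were likewise highest in OVA-induced WT lungs. Csf2rb and Csf2rb2 share 2.30% and 3.34% of their 150-base windows, so a small part of their reads could be split between them. In OVA-induced lungs Rab44-KO was 2.12-fold below WT for Il5ra (1.42 to 3.23), the only one of the 11 beyond 2-fold.

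Partners of the alarmin receptors differed from each other. Il1rap, the chain that ST2 needs to signal, had 456, 441, 369 and 630 counts, so it was lowest where Il1rl1 was highest. Rab44-KO over WT in OVA-induced lungs was 1.70 for Il1rap (1.49 to 1.93), against 0.488 for Il1rl1 (0.405 to 0.587). Crlf2, the ligand-binding chain for TSLP, had 455, 400, 629 and 388 counts, and Il7r, its partner, 371, 429, 591 and 645. Il17rb, the IL-25 chain, had 22, 38, 67 and 47 counts, and Il17ra, its partner, 822, 755, 1596 and 1192, although Il25 was not detected. Il2rg, the common γ chain of the IL-4 receptor on blood cells, had 1157, 1124, 2028 and 1404 counts, but 21.8% of its 150-base windows are shared with the model gene Gm20489. Il9r had 44, 33, 158 and 137 counts, and Il1rl2, a receptor for IL-36 rather than a type 2 cytokine, 418, 354, 397 and 290.

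**Figure D3:**
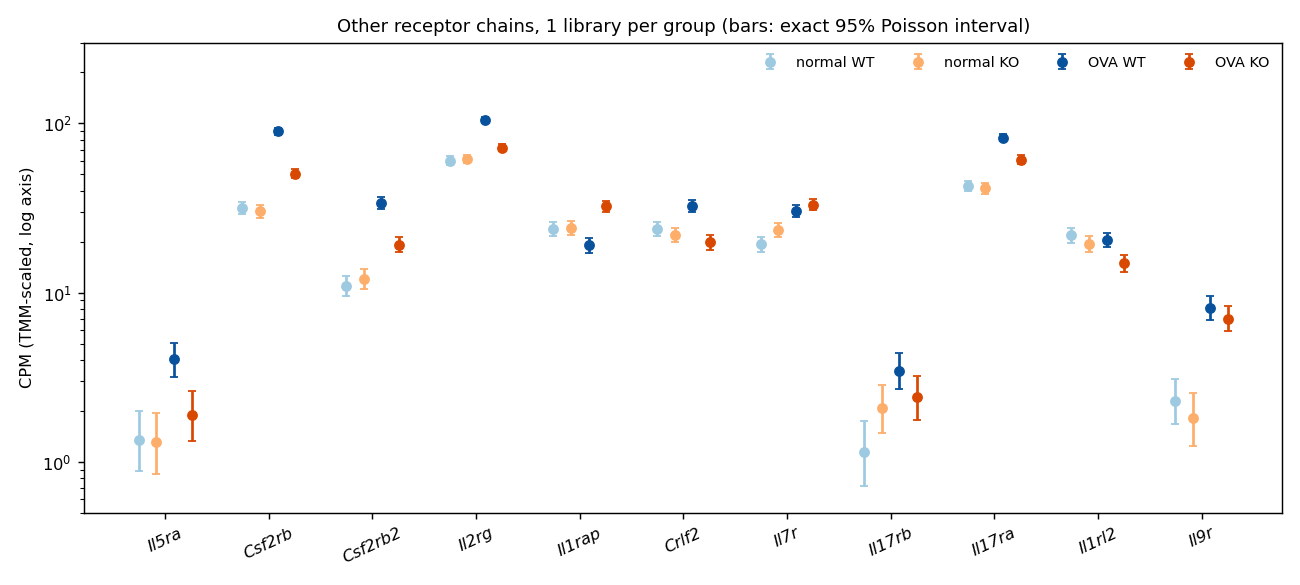
Level of 11 other receptor chains (CPM, log axis) in the 4 libraries, 1 point per library with its exact 95% Poisson interval. For Il5ra, Csf2rb, Csf2rb2, Il2rg, Crlf2 and Il17ra the OVA-induced WT interval lies above all others. For Il17rb and Il9r the OVA-induced WT point is the highest, with an interval that overlaps that of OVA-induced Rab44-KO and, for Il17rb, also that of normal Rab44-KO. For Il1rap the OVA-induced WT point is the lowest and OVA-induced Rab44-KO the highest.

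Downstream, the 22 genes listed as IL-4 or IL-13 targets in epithelium and macrophages summed to 975, 922, 10489 and 1400 CPM. Chil3 alone made up 355, 309, 5248 and 917 CPM of these sums. Its rise in Rab44-KO is larger than that of the sum, so the remaining targets together were not higher after OVA in Rab44-KO. Of the 21 that passed in WT, OVA-induced lungs were over 2-fold above normal ones for 18 (median log2 ratio 2.83), and in Rab44-KO for 3 of 19 (median 0.20). In OVA-induced lungs 16 of 21 were over 2-fold lower in Rab44-KO than in WT, 0 were higher, and the median was -2.57. Clca1, a secreted goblet cell protein, had, after OVA, 33407 counts in WT against 77 in Rab44-KO lungs. Retnla, made by alternatively activated macrophages, had 44659 and 944, the Th2 cell attractant Ccl8 1226 and 44, and the airway mucin Muc5ac 649 and 41. Chil3, close enough to Chil4 in sequence that reads could be split between them, was higher in OVA-induced than normal lungs in Rab44-KO mice too, with 17869 against 5639 counts.

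The signalling list of 16 Janus kinases, STATs, IRS2, MyD88-pathway and feedback genes varied little beside this. In OVA-induced over normal WT 1 of 16 was over 2-fold higher, with a median log2 ratio of 0.22, and in Rab44-KO 0 of 16, with a median of 0.21. The exception was Socs1, a cytokine-induced inhibitor of Janus kinases, with 57, 47, 134 and 37 counts. It was the only gene of the list beyond 2-fold between the OVA-induced libraries, with a log2 ratio of -1.86. Irs2, an adaptor of the IL-4 receptor and of the insulin receptor, had 814 and 1532 counts in these, a log2 ratio of 0.90, and the median of the list was 0.02.

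**Figure D4:**
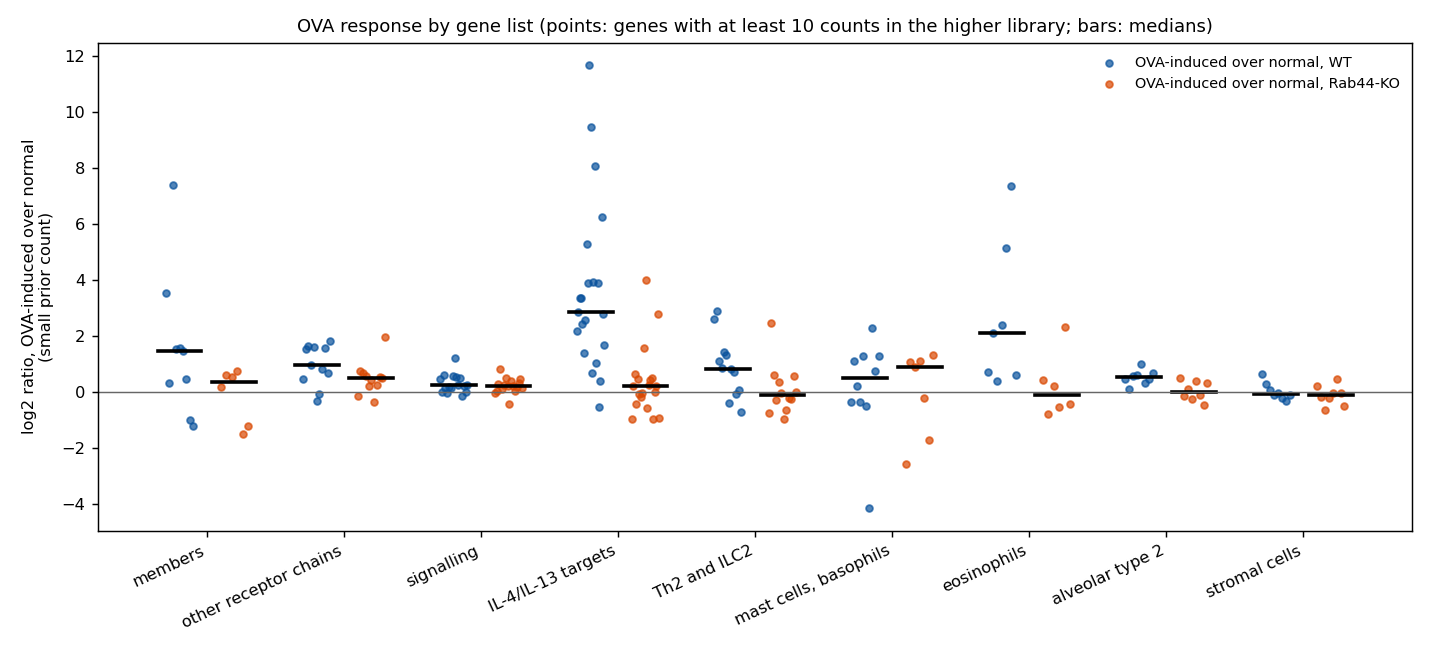
Log2 ratio of OVA-induced over normal CPM in WT and in Rab44-KO for the genes of each list that reached 10 counts in either library (1 point per gene, bars for medians). Genes at 0 counts in one library are drawn at their fitted value with a small prior count, which is not a bound. Medians in WT and Rab44-KO are 1.47 and 0.34 for the members, 2.83 and 0.20 for IL-4/IL-13 targets, and 0.22 and 0.21 for signalling. The medians of the members cover 9 genes in WT and 6 in Rab44-KO, where Il4, Il13 and Il13ra2 did not reach 10 counts. Those of the targets cover 21 and 19 genes.

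Markers of cells that make or read these cytokines differed between libraries, and not all in the same direction. For Th2 cells and ILC2, OVA-induced lungs exceeded normal ones over 2-fold for 5 of 12 markers in WT (median 0.82) and 1 of 12 in Rab44-KO (median -0.13). Those 5 include Cd3e, Cd4 and Cd28, which are not particular to Th2 cells or ILC2 among T cells. In OVA-induced lungs 6 of 12 were over 2-fold lower in Rab44-KO than WT and the median was -0.93. The T cell gene Cd3e had 108, 107, 288 and 144 counts, but Gata3 had 307, 197, 232 and 107, so it was highest in normal WT lungs. Rora, which stromal cells also express, was highest in OVA-induced Rab44-KO, with 1543, 1603, 935 and 1711 counts. The summed level of the 12 was 168 to 179 CPM in all 4 libraries, mostly from Rora and Maf, and none was at 0. The 10 others summed to 47.8, 46.7, 81.4 and 43.6 CPM, highest in OVA-induced WT lungs. The part of these cells in the members' values was not tested.

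Of the 8 eosinophil markers, 4 of 7 passing lay over 2-fold above normal in OVA-induced WT lungs (median 2.09) and 1 of 6 in Rab44-KO (median -0.12), and 5 of 7 were over 2-fold lower in Rab44-KO than WT after OVA (median -1.95). Their sum of 383, 402, 551 and 455 CPM is mostly Cd24a, which many lung cells express. The 7 others summed to 42.0, 38.5, 102 and 38.7 CPM, with Epx at 0 counts in all libraries but OVA-induced WT, where it had 1. Of the 10 mast cell and basophil markers, 4 were over 2-fold above and 1 below normal in OVA-induced WT lungs (median 0.48), as were 3 and 2 of 7 passing in Rab44-KO (median 0.88). Among them Rab44-KO lay over 2-fold below WT for 4 of 9 passing and over 2-fold above it for 1 after OVA (median -0.71), and none was at 0. Those 4 reached 10 counts only in OVA-induced WT, so the minimum fixed their direction. The marker that did not pass had 1 count in OVA-induced WT and 8 in Rab44-KO lungs. Their sum of 411, 445, 393 and 556 CPM is nearly all Kit, Hdc and Gata2, which other cells express too, and the 7 others summed to 8.12, 5.75, 12.1 and 6.46 CPM. The part of eosinophils, mast cells and basophils was not tested.

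For the tissue cells that make alarmins, the 8 alveolar type 2 cell markers summed to 21208 CPM in normal WT lungs and, after OVA, to 30504.5 in WT and 18487.5 in Rab44-KO lungs. None was over 2-fold above normal in OVA-induced WT (0 of 8, median 0.51), and 1 of 8 (Sftpc) was over 2-fold lower in OVA-induced Rab44-KO than WT (median -0.39). The 8 stromal markers summed to 1735 to 1845 CPM with 0 of 8 beyond 2-fold in any comparison, and in Rab44-KO over WT after OVA 4 were above and 4 below 0. Tuft cell markers summed to 46.4, 44.4, 105 and 70.1 CPM, almost wholly from Dclk1 and Alox5ap, which other cells express, and Chat was at 0 in every library. Of the 7, 3 of 3 passing were over 2-fold above normal in OVA-induced WT (median 1.13) and 1 of 3 in Rab44-KO (median 0.64). Between the OVA-induced libraries 0 of 3 were beyond 2-fold (median -0.55). The 6 basal airway cell markers, of cells known to make TSLP, summed to 4.74, 7.56, 3.20 and 2.92 CPM, with 1 of the 6 at 0 counts in each library but normal WT. Alveolar macrophage markers (7 found of 8) summed to 690, 610, 5705 and 1187 CPM, mostly Chil3, which is also on the target list, and the 6 others to 335, 301, 457 and 271 CPM. The part of these cells was not tested either.

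Heart muscle genes and immediate-early genes also differed between libraries. The 8 heart muscle markers summed to 767, 848, 337 and 758 CPM. The 8 immediate-early genes summed to 881, 1447, 659 and 1507 CPM, so OVA-induced WT was lowest on both lists. The 6 lung markers summed to 40261, 38772, 39213 and 30015 CPM. The log2 ratio of Rab44-KO over WT in OVA-induced lungs also ran with gene length, from -0.52 at the short end of the measured genes to 0.49 at the long end. With the running median along length removed, Il33 stood at -0.63, Il1rl1 at -1.35, Il4 at -1.02 and Il4ra at 0.26 in this comparison. The part of heart tissue and of immediate-early induction in the members' values was not tested.

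Genes whose 4-library pattern lay nearest to a member were sought among 16807 genes with at least 30 counts in their highest library, as the root mean square difference of centred log2 CPM. For Il33 they were Bend6 (0.0429), Apol9b (0.0480) and Plcl2 (0.0482). For Tslp they were Wee1 (0.0738), Tpd52l1 (0.0797) and Stc1 (0.0890). For Il1rl1 they were Cilp (0.0202), the IL-5 receptor chain Il5ra (0.0363) and Mmp19 (0.0388). With 4 libraries many genes lie close by, so this is a description only. None of the members shares a 150-base window with another gene, but Il5, Tslp and Il4ra overlap genes on the opposite strand, and whether the counting used strand is not given in the sources used here. The one that overlaps Tslp, 4930455D15Rik, had 10, 4, 4 and 6 counts.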

How the data were processed

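Lung RNA was measured in 4 libraries, 1 per group, grouped by their labels. Per the labels and the study's methods, libraries were made with the NEBNext Ultra II Directional kit, aligned to GRCm38 with HISAT2 and counted with featureCounts, and the authors name DESeq2 for differential expression. Versions and the strand setting of the counting are not given in the sources used here. The authors deposited raw counts per gene and TPM. Dividing counts by TPM gave 1 length per gene, up to a factor for each library, in 15583 genes above 20 counts throughout. Coordinates in the deposited file have the GENCODE M21 start for 0 of the 10 members, and printed positions are from GENCODE M21.

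Counts were scaled by TMM in edgeR 4.0.16 (R 4.3.3), with factors of 0.973 to 1.02. Log2 ratios of CPM used a prior count of 0.125, and ratios beyond 2-fold were counted among genes that reached 10 counts in either library. CPM has an exact Poisson interval and a ratio of counts a Clopper-Pearson interval at 95%, by scipy 1.17.1 in Python 3.11.15 with numpy 2.4.6 and pandas 2.3.3. With 1 library per group no p-value was computed, and an additive fit of genotype and OVA over the 4 libraries was not run. Figures were drawn with matplotlib 3.10.9. The steps were tested on simulated data.

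The members and gene lists were chosen with earlier results of these data known. The genes named are Rab44, all members, all of the receptor list, from every other list at most 5 per comparison with the largest absolute log2 ratio and at least 100 counts (10 for cytokines), and the 3 nearest patterns of members with at least 30 counts that range over 1 in log2 CPM. A few marker genes were named after their values were seen: Epx, Chat, Cd24a, Il17a, Il23a and the gene that overlaps Tslp. Sums of 4 marker lists without their most abundant genes were added after seeing the data. Alternatives were DESeq2 1.42.0 size factors, total counts, a prior count of 2, TMM without immunoglobulin genes, TPM with a pseudocount of 0.1, a running median over 501 genes along gene length removed, count minimums of 1 and 50, and intervals wholly beyond 2-fold.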

Additional observations from a re-analysis of the deposited data

Results flagged for a closer look

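Il33 had genotype differences of opposite sign in the 2 conditions. The log2 ratio of Rab44-KO over WT was 0.22 in normal lungs and -0.81 in OVA-induced lungs, with counting intervals that exclude 0 in both. Il4 and Il5 also had opposite signs, but on few counts and not beyond counting error in both conditions. With 1 library per condition the difference between these was not tested beyond counting error.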

How the results depend on the processing

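No paired analysis was possible because each group is 1 library, and leaving out a replicate was not possible for the same reason. Counts of members beyond 2-fold stayed within 1.5 times the reported count in 26 of 36 recounts where that count was above 0. Where it was 0, it remained 0 in 34 of 36. A minimum of 50 counts left 2 higher and 1 lower in OVA-induced over normal WT, 1 lower in OVA-induced over normal Rab44-KO, and 1 lower in Rab44-KO over WT in OVA-induced lungs, each of 5 members that passed. Over all genes 6.51% and 2.38%, 1.88%, and 5.14% were called at that minimum. Intervals wholly beyond 2-fold left 3 higher and 0 lower, 0 lower, and 2 lower in these comparisons. Il5 in WT lay at the threshold, so DESeq2 size factors and a prior count of 2 each left 1 lower in place of 2. A minimum of 1 count added 1 higher member in OVA-induced over normal Rab44-KO and 1 lower member in Rab44-KO over WT in normal lungs, each of 8 that passed, where 14.8% and 9.65% of genes were called. Values of single members moved by more than counting error in 16 of 215 recounts, 13 on TPM and 3 with the length trend removed, and none beyond 2-fold turned in direction. TPM moved the median log2 ratio of all genes to -0.16, 0.11, 0.03 and 0.29 in the 4 comparisons as listed in the report. In Rab44-KO over WT in OVA-induced lungs it gave Il33 -0.49 and Il4ra 0.77. The difference of the OVA ratio between genotypes changed sign for Tslp and Il13ra1, to 0.28 and 0.16 on TPM. Depth limits Il4, Il5, Il13, Il13ra2 and Il25, each with 21 counts or fewer in every library.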

Other observations

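Other cytokines of helper and innate cells were also low. Of 8 further type 2 and regulatory cytokines, 4 passed 10 counts in the WT comparison, of which 2 were over 2-fold higher in OVA-induced lungs, Il10 with 1 and 10 counts and Il6 with 2 and 13. Both passed only through the library where they are high, so they had to be higher there. In OVA-induced lungs 2 of 4 were over 2-fold lower in Rab44-KO than WT, against 7.34% of all genes. These were Csf2 and Il6, which of the OVA-induced libraries reached 10 counts only in that of WT, so the minimum fixed their direction. Csf2, which encodes the eosinophil and macrophage growth factor GM-CSF, had 35 and 28 counts in normal WT and Rab44-KO lungs and 46 and 6 in OVA-induced ones, where its CPM was 7.72-fold lower in Rab44-KO than WT (3.29 to 22.1). Areg, an epithelial growth factor made by ILC2 among others, had 62, 81, 56 and 47 counts.

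Of 8 cytokines of other helper lineages, 1 of 4 passing was over 2-fold higher in OVA-induced than normal WT lungs and 2 of 4 were over 2-fold lower in OVA-induced Rab44-KO than WT. The type 1 cytokine Ifng had 5, 3, 20 and 1 counts in the same order, a ratio of 20.1 between the OVA-induced libraries that counting error leaves between 3.22 and 834. It is in both of these counts and reached 10 counts only in OVA-induced WT, so the minimum fixed its direction in each. Tnf had 27, 15, 39 and 17 counts. Others of the list stood differently, with Il12a at 58, 41, 36 and 32 counts, Il17a at 0, 0, 0 and 4, and Il23a at 0, 2, 1 and 5.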
